A study of Nicotiana tabacum with 60 samples.

Results

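*accD* is the chloroplast gene for the β subunit of the carboxyltransferase of acetyl-CoA carboxylase. It was followed in Ribo-seq and RNA-seq of tobacco (*Nicotiana tabacum*) leaves, as 1 of 78 chloroplast genes in the tables, chosen by name. Its Ribo-seq window lies at 59808 to 61306, plus strand, of the tobacco chloroplast genome that the authors used, and covers 1499 nt of a reading frame of 1539 nt. The plastid acetyl-CoA carboxylase makes malonyl-CoA, the first committed step of fatty acid synthesis, and its other subunits are encoded in the nucleus. *accD* is indispensable in tobacco, and unlike most plastid genes it is not part of a photosynthetic complex. It is known for transcription by the nuclear-encoded plastid RNA polymerase, whereas the main promoters of photosynthesis genes are read by the plastid-encoded enzyme.

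The study asked how the loss of 1 subunit of a photosynthetic complex affects the translation of the others. It holds 7 mutants and 3 control lines, with 3 samples of each line in Ribo-seq and 3 in RNA-seq. Ribo-seq counts the mRNA fragments that ribosomes protect (footprints, 20 to 39 nt here) and gives translation output, and RNA-seq gives transcript accumulation. 5 of the mutants were compared with pRB8c, a transplastomic line that carries the *aadA* spectinomycin resistance marker in an otherwise unmutated chloroplast genome, and so share its 3 samples of each kind. In Δ3'-*psbD* the *aadA* cassette replaces the end of *psbD* and the start of *psbC* (photosystem II). Δ*psbJ* lacks a small subunit of photosystem II. In Δ*petB*/*D* the genes *petB* and part of *petD* (cytochrome b6f complex) are deleted together with *psbB*, *psbT*, *psbN* and *psbH*. In Δ*petN* a small cytochrome b6f gene is disrupted, and in Δ*atpB*/*E* the cassette lies within the genes of the β and ε subunits of the ATP synthase. Δ*psaB* carries a frameshift in a photosystem I core gene and was compared with RB70, another transplastomic line with *aadA*. By the study's legends replicate 3 of Δ*psaB* carries another frameshift allele than the other replicates, if the numbering there is that of the labels. Means and fits of Δ*psaB* then pool both alleles. as-*ATPC* expresses a nuclear antisense construct against the γ subunit of the ATP synthase in the background of the wild type SNN, its control. The labels give MS medium with 3% sucrose for every sample, whereas the methods describe growth without sucrose on soil for as-*ATPC* and SNN and on sucrose in low light for the others. The tables hold chloroplast genes only, so leaf cell types could not be checked by marker genes, and fewer cells of a type and less RNA per cell cannot be told apart in such bulk samples.

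Chloroplast coding counts ran from 31328 to 5331355 per Ribo-seq library and from 1029393 to 14748697 per RNA-seq library. *accD* itself had 195 to 6390 footprints and 1759 to 55790 RNA counts. The 95% Wilson interval of its share of coding footprints was within 14.1% of the value in every library, which covers counting error only. Chloroplast reads were 3.00% to 33.8% of the Ribo-seq reads mapped to the chloroplast, mitochondrial and nuclear genomes, and 36.3% to 65.8% of the RNA-seq reads. Replicate 1 of Δ*psaB* stood apart, with chloroplast reads at 3.35% of mapped footprints against 15.3% and 17.0% in the other libraries of that line. Because the chloroplast share differed this much between lines, *accD* levels are given on 2 scales, with single RNA libraries on the second only. Coding CPM are counts per 1000000 chloroplast coding counts of the library, and mapped CPM are counts per 1000000 reads mapped to all 3 genomes.

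In mapped CPM *accD* footprints stayed within a narrow range over all 10 lines. The line means lay between 153 ± 11.2 (SD, n = 3) in SNN and 391 ± 29.9 in Δ*petB*/*D*, and the 8 lines described as grown on sucrose lay between 223 ± 30.0 in RB70 and that value. On a log2 scale the means of the 10 lines spanned 1.36, the smallest span among the 77 genes tested. *rps12*, for a ribosomal protein, followed with 1.44. Over the 8 lines on sucrose the span of *accD* was 0.82, the second smallest. *rpoB* had a smaller one (0.69), and *ndhB* (0.92), *ycf1* (1.01) and *ycf2* (1.11) followed *accD*, with *rps12* at 1.44. Counting noise widens the span of genes with few counts, and this measure was chosen after its values were seen, so it carries no test. *accD* RNA in mapped CPM spanned 2.85, which placed it 56th of 77 from the smallest.

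**Figure D1:**
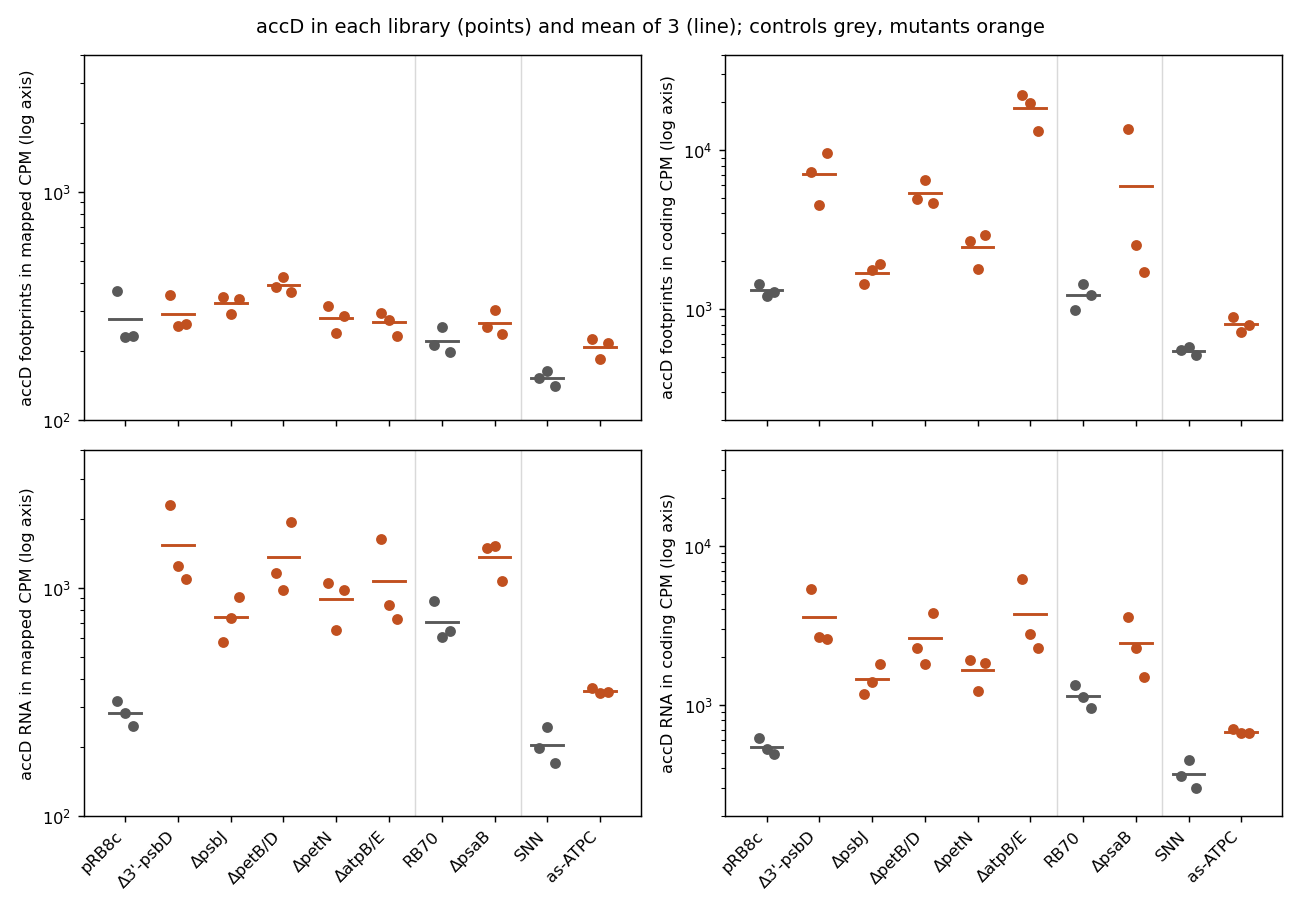
*accD* in each library, in mapped CPM (left) and coding CPM (right), for footprints (top) and RNA (bottom), on log axes. Points are libraries, lines the mean of 3, controls are grey and mutants orange; in mapped CPM the footprint means lie between 153 and 391, and in coding CPM between 549 and 18421.

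**Figure D2:**
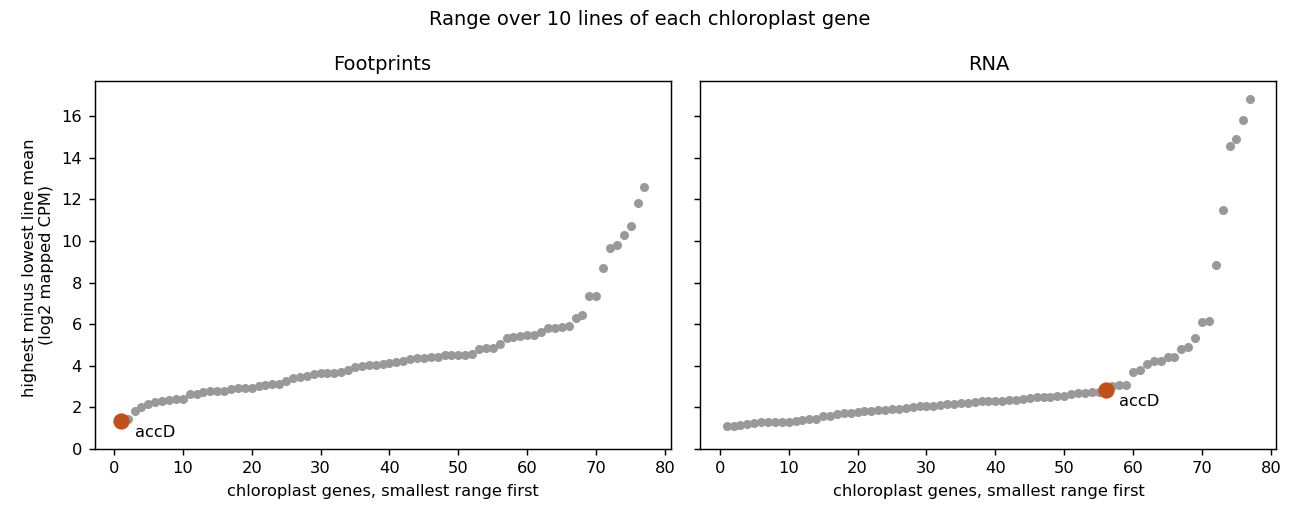
Highest minus lowest line mean over the 10 lines, in log2 mapped CPM, for each of 77 chloroplast genes sorted from the smallest, in footprints (left) and RNA (right). *accD* has the smallest footprint range, 1.36, and the 56th smallest RNA range, 2.85.

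In coding CPM the lines were far more spread. The mean of *accD* footprints ran from 549 ± 28.4 in SNN to 18421 ± 4695 in Δ*atpB*/*E*, where its libraries held 13150 to 22156. In descending order Δ*atpB*/*E* was followed by Δ3'-*psbD* (7118 ± 2534), Δ*psaB* (5934 ± 6623), Δ*petB*/*D* (5370 ± 1006), Δ*petN* (2468 ± 602), Δ*psbJ* (1700 ± 247), pRB8c (1316 ± 120), RB70 (1220 ± 229), as-*ATPC* (804 ± 85.8) and SNN. The ranges of neighbours in this order overlapped except between Δ*atpB*/*E* and Δ3'-*psbD*, between Δ*petB*/*D* and Δ*petN*, between RB70 and as-*ATPC* and between as-*ATPC* and SNN. The libraries with the smallest chloroplast shares had the highest *accD* shares. The 4 libraries with chloroplast reads under 5% of mapped footprints, 3 of Δ*atpB*/*E* and replicate 1 of Δ*psaB*, had 13150 to 22156 *accD* footprints in coding CPM. The 6 libraries of SNN and as-*ATPC*, at 29.2% to 33.8%, had 518 to 894. Between these extremes libraries with like chloroplast shares differed. Replicate 3 of Δ*petB*/*D* had 4654 at 22.5%, and replicates 2 and 3 of pRB8c had 1214 and 1286 at 22.7% and 22.4%. Both axes of this plot contain the chloroplast reads of the same library, so they are not independent.

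**Figure D3:**
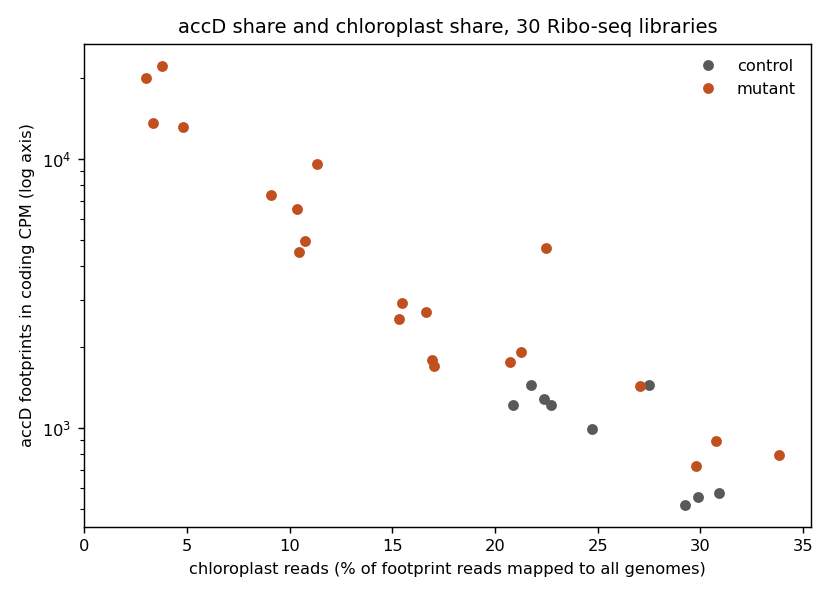
*accD* footprints in coding CPM (log axis) against chloroplast reads as a percentage of mapped footprints, 1 point for each of 30 Ribo-seq libraries, controls grey and mutants orange. The *accD* share was 22156 coding CPM at a chloroplast share of 3.77% and 518 at 29.2%, with replicate 3 of Δ*petB*/*D* at 4654 and 22.5%.

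*accD* RNA was higher in the mutants than in their controls on both scales. The mean was 282 ± 35.4 mapped CPM in pRB8c and between 745 ± 167 (Δ*psbJ*) and 1547 ± 663 (Δ3'-*psbD*) in the 5 mutants compared with it. It was 710 ± 148 in RB70 and 1363 ± 249 in Δ*psaB*, and 205 ± 37.8 in SNN and 353 ± 8.49 in as-*ATPC*. In coding CPM the RNA mean was 548 ± 66.4 in pRB8c and between 1466 ± 328 (Δ*psbJ*) and 3760 ± 2124 (Δ*atpB*/*E*) in those 5 mutants. On that scale it was 1136 ± 184 in RB70 and 2455 ± 1061 in Δ*psaB*, and 369 ± 73.7 in SNN and 681 ± 23.2 in as-*ATPC*. The control lines themselves differed on both scales, since in mapped CPM, for example, the lowest RB70 library (607) lay above the highest pRB8c library (318). This difference between controls was not tested. In replicates 1 and 3 of RB70, unlike in pRB8c, RNA coding counts exceeded the chloroplast reads listed for the library. Per kilobase, relative to coding counts, *accD* was a weakly represented gene in controls, 68th of 78 genes in pRB8c footprints and 65th in RNA, and it was 32nd in footprints and 55th in RNA in Δ*atpB*/*E*.

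For each mutant the counts were fitted in edgeR (quasi-likelihood test). A change was called at a p of 0.01 or less after adjustment over the 77 genes. The study also asked for a change of at least 4-fold, which was not required here. With TMM, only the footprint rise of *accD* in Δ*atpB*/*E* (8.07-fold) passes both of the study's limits. The main scaling is TMM, which sets each change relative to the bulk of the chloroplast genes. The second scaling uses the reads mapped to all genomes. It keeps changes in the chloroplast share and in the share of chloroplast reads that fall in reading frames. In Ribo-seq that second share was 35.2%, 45.9% and 37.3% in the Δ*atpB*/*E* libraries. It was 53.3%, 55.3% and 24.4% in Δ3'-*psbD* and 92.7%, 84.0% and 81.2% in pRB8c. Translation efficiency is footprints over RNA, tested as a term for how the genotype effect differs between the library types. The scalings differed most in Δ*atpB*/*E*, where the median log2 change of footprints over all genes was 0.36 with TMM and −2.67 with mapped reads.

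**Figure D4:**
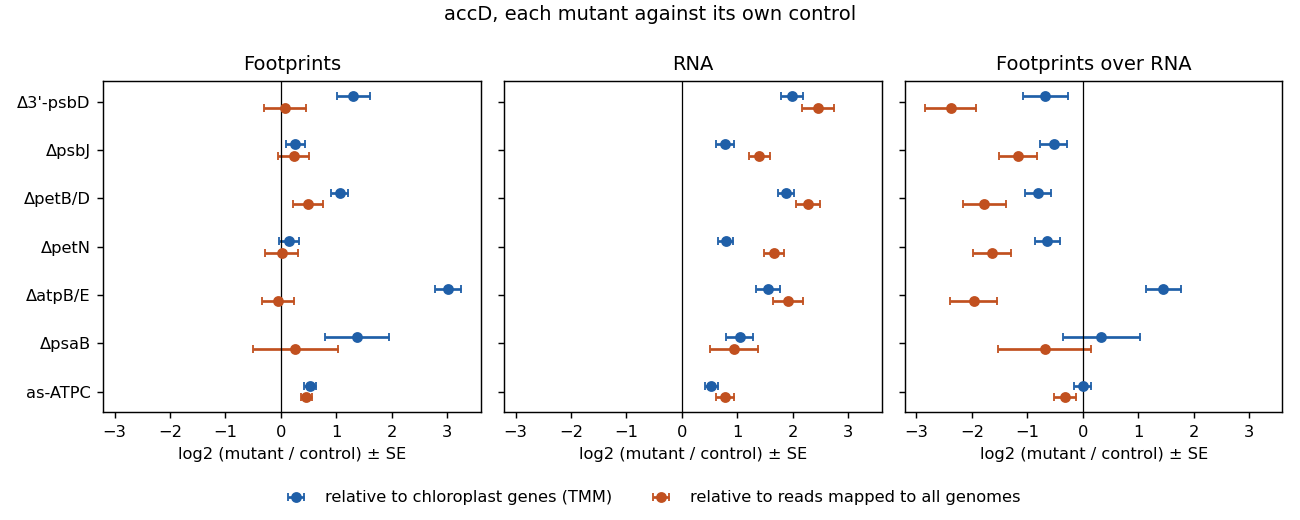
Log2 change of *accD* with its standard error (SE) in each mutant against its own control, for footprints, RNA and footprints over RNA, with TMM (blue) and with scaling to reads mapped to all genomes (orange). RNA changes lie above 0 on both scales in all 7 comparisons, and footprint changes relative to mapped reads lie between −0.052 and 0.49.

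In Δ*atpB*/*E* *accD* had its largest rise in translation output relative to the other chloroplast genes. In coding CPM its footprints were 22156, 19957 and 13150 in the 3 libraries, against 1448, 1214 and 1286 in pRB8c. Each mutant library was above each control library, as by any amount for 64.9% of genes. *accD* footprints rose by 3.01 on the log2 scale (8.07-fold, SE 0.23, edgeR adjusted p = 3.69e-06), where 44.2% of genes were called higher, and 5 genes rose more. On the second scale, however, the libraries held 294, 275 and 235 *accD* footprints in mapped CPM against 369, 232 and 234, and the groups overlapped. The log2 change on that scale was −0.052 (SE 0.28, edgeR adjusted p = 0.865, 2 SE on either side covering 0.653-fold to 1.42-fold), while 83.1% of genes were called lower. Chloroplast reads were 3.86% ± 0.90 of mapped footprints in Δ*atpB*/*E* and 24.2% ± 2.85 in pRB8c (exact two-sided permutation test, p = 0.1, the smallest that 3 against 3 allows).

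*accD* RNA in Δ*atpB*/*E* was 1629, 837 and 733 mapped CPM, against 318, 282 and 248 in pRB8c. Every mutant library was above every control library, as for 49.4% of genes, and replicate 1 was the highest. RNA rose 2.95-fold (log2 change 1.56, SE 0.22, edgeR adjusted p = 1.19e-04) with TMM, where 41.6% of genes were called higher, and 3.77-fold relative to mapped reads (log2 change 1.92, edgeR adjusted p = 2.59e-11), where 44.2% were. The direction of the change in translation efficiency depended on the scaling. It was 1.45 on the log2 scale with TMM (SE 0.32, edgeR adjusted p = 9.12e-04, 36.4% of genes called higher) and −1.97 with mapped reads (SE 0.42, edgeR adjusted p = 2.79e-04, 94.8% called lower). The TMM value gave no call without Δ*atpB*/*E* replicate 2 (1.22, edgeR adjusted p = 0.0142), with library sizes alone (1.03, 0.0725) or with all lines in 1 fit (0.82, 0.115).

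In Δ3'-*psbD* transcript accumulation of *accD* rose, and the change in its translation output missed the threshold. RNA was 2307, 1243 and 1091 mapped CPM, all above the 248 to 318 of pRB8c, as for 57.1% of genes. The rise was 3.96-fold with TMM (log2 change 1.98, SE 0.20, edgeR adjusted p = 1.78e-13), where 40.3% of genes were called higher, and 5.48-fold relative to mapped reads (log2 change 2.45, edgeR adjusted p = 2.69e-05), where 46.8% were. Footprints in coding CPM were 7317, 4490 and 9547, all above pRB8c, as for 74% of genes. With TMM their log2 change was 1.31 (SE 0.29, edgeR adjusted p = 0.0126), and 11.7% of genes were called higher. The call was made at 1.04 (edgeR adjusted p = 0.00132) without replicate 3, at 1.72 (0.00373) without replicate 2 and at 1.39 (0.00217) with all lines in 1 fit. Replicate 3 had 24.4% of its chloroplast reads in reading frames, the lowest share of all Ribo-seq libraries.

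In mapped CPM the Δ3'-*psbD* libraries held 355, 259 and 263 *accD* footprints, within the 232 to 369 of pRB8c. The log2 change was 0.073 (SE 0.37, edgeR adjusted p = 0.869), with 0% of genes called higher by edgeR (1 of 77 at an unadjusted p under 0.05) and 24.7% lower. Translation efficiency was −0.68 with TMM (SE 0.40, edgeR adjusted p = 0.201, 10.4% of genes called lower) and −2.38 with mapped reads (SE 0.46, edgeR adjusted p = 5.46e-04), a scale on which 66.2% of genes were called lower. Chloroplast reads were 10.3% ± 1.11 of mapped footprints.

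In Δ*psbJ*, the other photosystem II mutant, RNA rose and footprints gave no call. *accD* RNA was 580, 741 and 915 mapped CPM, all above pRB8c, as for 72.7% of genes. It rose 1.72-fold with TMM (log2 change 0.78, SE 0.17, edgeR adjusted p = 1.24e-05), where 33.8% of genes were called higher, and 2.64-fold relative to mapped reads (log2 change 1.40, edgeR adjusted p = 3.85e-09), where 64.9% were. With RB70 as the control the TMM change was 0.51 (edgeR adjusted p = 0.0233) and gave no call. Footprints were 347, 292 and 341 mapped CPM and overlapped pRB8c, as they did in coding CPM (1429, 1758 and 1912). Their log2 change was 0.26 with TMM (SE 0.17, edgeR adjusted p = 0.271, 2 SE covering 0.945-fold to 1.51-fold), where 7.79% of genes were called higher, and 0.23 with mapped reads (edgeR adjusted p = 0.689), where 0% were (12 of 77 at an unadjusted p under 0.05). Translation efficiency was −0.52 with TMM (SE 0.24, edgeR adjusted p = 0.0952, 16.9% of genes called lower) and −1.17 with mapped reads (edgeR adjusted p = 0.0128, 19.5% called lower).

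In Δ*petB*/*D* *accD* RNA had the second highest change of all 77 genes, and its footprints rose relative to the other chloroplast genes. RNA was 1165, 982 and 1939 mapped CPM, with replicate 3 the highest, and all libraries were above pRB8c, as for 54.5% of genes. RNA rose 3.67-fold with TMM (log2 change 1.88, SE 0.15, edgeR adjusted p = 1.31e-12), where 41.6% of genes were called higher, and 4.82-fold relative to mapped reads (log2 change 2.27, edgeR adjusted p = 1.74e-20), where 49.4% were. Footprints in coding CPM were 4935, 6520 and 4654, all above pRB8c, as for 61% of genes. They rose 2.08-fold with TMM (log2 change 1.06, SE 0.15, edgeR adjusted p = 0.00159), where 13% of genes were called higher. Without pRB8c replicate 2 the adjusted p was 0.0122 at nearly the same value.

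The Δ*petB*/*D* libraries held 385, 423 and 365 *accD* footprints in mapped CPM, the highest mean of the 10 lines, of which replicate 3 lay within the range of pRB8c. That change, 0.49 on the log2 scale (SE 0.27, edgeR adjusted p = 0.153), gave no call, and 1.3% of genes were called higher there. Translation efficiency was −0.82 with TMM (SE 0.23, edgeR adjusted p = 0.0128, 19.5% of genes called lower) and −1.78 with mapped reads (edgeR adjusted p = 8.73e-04), where 46.8% of genes were called lower.

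In Δ*petN* the RNA rose again and the footprints gave no call. *accD* RNA was 1051, 651 and 977 mapped CPM, all above pRB8c, as for 68.8% of genes. It rose 1.73-fold with TMM (log2 change 0.79, SE 0.13, edgeR adjusted p = 1.29e-04), where 26% of genes were called higher, and 3.16-fold relative to mapped reads (log2 change 1.66, edgeR adjusted p = 1.09e-11), where 66.2% were. Footprints were 317, 240 and 286 mapped CPM and overlapped pRB8c. In coding CPM they were 2698, 1785 and 2920, all above pRB8c, as for 61% of genes. The log2 change was 0.15 with TMM (SE 0.17, edgeR adjusted p = 0.446, 2 SE covering 0.871-fold to 1.40-fold, 26% of genes called higher) and 0.015 with mapped reads (edgeR adjusted p = 0.959, where 15.6% of genes were called higher). With library sizes alone it was 0.91 (edgeR adjusted p = 3.22e-05) and was called. Translation efficiency was −0.64 with TMM (SE 0.22, edgeR adjusted p = 0.0205, 22.1% of genes called lower) and −1.65 with mapped reads (edgeR adjusted p = 2.47e-04), where 40.3% of genes were called lower.

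Setting these 5 mutants against each other in 1 fit with TMM takes the shared control out of each difference. The pRB8c libraries stayed in the fit. Over 10 pairs, with p-values adjusted over 770 tests of each measure, *accD* footprints differed in 8 pairs, where 29.2% of all tests were called. RNA differed in 5 pairs (41.3% of all tests) and translation efficiency in 4 (15.1%). Δ*atpB*/*E* footprints exceeded those of Δ3'-*psbD*, the nearest in coding CPM, by 1.23 on the log2 scale (SE 0.24, edgeR adjusted p = 5.74e-04). In mapped CPM the order of these 2 lines was the opposite, 268 ± 30.4 in Δ*atpB*/*E* and 293 ± 54.1 in Δ3'-*psbD* with overlapping libraries, and pairs were not tested on that scale. Δ3'-*psbD* and Δ*petB*/*D* gave no call in footprints (difference 0.24, SE 0.24, edgeR adjusted p = 0.458), and neither did Δ*psbJ* and Δ*petN* (−0.0024, SE 0.24, edgeR adjusted p = 0.992). All 4 pairs called in translation efficiency held Δ*atpB*/*E*. In mapped CPM its footprints over RNA stood at 0.251, within the 0.189 (Δ3'-*psbD*) to 0.438 (Δ*psbJ*) of the other mutants. With library sizes alone, the 1 alternative run, 18 of the 30 pair results kept their direction and side of the threshold, 6 reversed, 5 lost the call and 1 gained it, all of them in RNA or translation efficiency.

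In Δ*psaB* the result turned on replicate 1. *accD* footprints in coding CPM were 13566, 2531 and 1704, against 992, 1450 and 1219 in RB70. All 3 were above the control, as for 64.9% of genes, but replicate 1 was far above the others. The same libraries held 256, 303 and 238 footprints in mapped CPM against 214, 256 and 198, so replicate 1 lay between the other mutant libraries and the groups overlapped. With TMM the log2 change of footprints was 1.37 (SE 0.57, edgeR adjusted p = 0.132), in a comparison in which edgeR called 0% of genes in either direction, while 16 were higher and 11 lower at an unadjusted p under 0.05 and DESeq2's Wald test called 7 and 7. It was 0.20 (SE 0.26, edgeR adjusted p = 0.574) without replicate 1 and 0.25 (SE 0.77, edgeR adjusted p = 0.944) with mapped reads.

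*accD* RNA in Δ*psaB* was 1488, 1525 and 1076 mapped CPM against 880, 607 and 644 in RB70, without overlap, as for 13% of genes. Its change of 1.04 (log2, TMM, SE 0.24, edgeR adjusted p = 0.0214) gave no call, and 2.6% of genes were called higher. Without replicate 1 it was 1.09 (SE 0.19, edgeR adjusted p = 2.02e-07) and was called, as 14.3% of genes were. With mapped reads it was 0.94 (edgeR adjusted p = 0.0988, 5.19% of genes called higher). Translation efficiency gave no call, at 0.33 with TMM (SE 0.69, edgeR adjusted p = 0.837) and −0.69 with mapped reads (edgeR adjusted p = 0.947), and at −0.89 (SE 0.34, edgeR adjusted p = 0.0537) without replicate 1.

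In as-*ATPC* footprints and RNA of *accD* rose together, by a small amount and on both scales, in the fit of these 2 lines alone. With all lines in 1 fit neither was called (footprints 0.38, edgeR adjusted p = 0.540; RNA 0.57, edgeR adjusted p = 0.106). Footprints were 226, 185 and 219 mapped CPM against 153, 164 and 141 in SNN, without overlap, as for 33.8% of genes. They rose 1.44-fold with TMM (log2 change 0.53, SE 0.10, edgeR adjusted p = 4.10e-04), where 36.4% of genes were called higher, and 1.38-fold relative to mapped reads (log2 change 0.46, edgeR adjusted p = 0.00380), where 23.4% were. RNA was 362, 347 and 348 mapped CPM against 200, 246 and 171, also without overlap, as for 61% of genes. It rose 1.44-fold with TMM (log2 change 0.53, SE 0.12, edgeR adjusted p = 1.52e-04), where 39% of genes were called higher, and 1.72-fold relative to mapped reads (log2 change 0.78, edgeR adjusted p = 3.03e-04), where 53.2% were. Translation efficiency was −0.0034 with TMM (SE 0.16, edgeR adjusted p = 0.997, 2 SE covering 0.804-fold to 1.24-fold, 15.6% of genes called lower) and −0.32 with mapped reads (edgeR adjusted p = 0.142, 33.8% called lower). Chloroplast reads were 31.5% ± 2.11 of mapped footprints in as-*ATPC* and 30.0% ± 0.85 in SNN (exact two-sided permutation test, p = 0.5). The calls did not hold without as-*ATPC* replicate 1 for footprints (0.45, edgeR adjusted p = 0.0110) and without SNN replicate 1 for RNA (0.61, edgeR adjusted p = 0.0181).

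As ratios of line means in mapped CPM, *accD* footprints over RNA stood at 0.985 in pRB8c and at 0.189 to 0.438 in the 5 mutants compared with it. RB70 had 0.314 and Δ*psaB* 0.195, and SNN had 0.743 and as-*ATPC* 0.595. RB70, a control, was thus within the range of the mutants on that scale. RB70 and Δ*psaB* also had the shallowest libraries, and whether depth bears on these ratios was not tested. As ratios in coding CPM the values were 2.40 in pRB8c, 1.16 to 4.90 in the 5 mutants and 1.07 in RB70, so that RB70 lay below these mutants and Δ*atpB*/*E*, at 4.90, above pRB8c. On that scale Δ*psaB* had 2.42, SNN 1.49 and as-*ATPC* 1.18. With RB70 as the control in place of pRB8c the translation efficiency of *accD* with TMM was 0.15 in Δ3'-*psbD*, 0.17 in Δ*psbJ* and 0.14 in Δ*petB*/*D*, against negative values with pRB8c. It kept its direction in the other mutants compared with pRB8c, negative in Δ*petN* and positive in Δ*atpB*/*E*.

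6 other genes known to be transcribed from promoters of the nuclear-encoded polymerase were read beside *accD*. These are *rpoB*, *rpoC1* and *rpoC2*, for subunits of the plastid-encoded RNA polymerase, *ycf1* and *ycf2*, indispensable genes outside photosynthesis, and *clpP*, for a protease subunit, which has other promoters too. *rpoB*, *rpoC1* and *rpoC2* form 1 operon, so they are not independent members of the counts and medians below. In Δ*atpB*/*E* 5 of the 6 rose in footprints and 5 in RNA, where 44.2% and 41.6% of all genes did, with a median log2 change in footprints of 3.35 against 0.36 over all genes. *rpoC1* footprints rose by 4.38 on the log2 scale (edgeR adjusted p = 1.94e-06), *rpoC2* by 3.97 and *ycf2* by 3.57, beside 3.01 for *accD*. Relative to mapped reads 1 of the 6 was called higher and 1 lower in these footprints (median log2 change 0.26 against −2.67), where 1.3% and 83.1% of all genes were, whereas 6 were called higher in RNA (44.2%). In RNA with TMM 5 of 6 rose in Δ3'-*psbD* (40.3% of all genes), 3 in Δ*psbJ* (33.8%), 5 in Δ*petB*/*D* (41.6%), 4 in Δ*petN* (26%), 1 in Δ*psaB* (2.6%) and 4 in as-*ATPC* (39%). Relative to mapped reads these counts were 5 (46.8% of all genes), 6 (64.9%), 5 (49.4%), 6 (66.2%), 2 (5.19%) and 5 (53.2%). *clpP* RNA went the other way in Δ*petB*/*D*, Δ*petN* and as-*ATPC*, where it was called lower with TMM but in none of these relative to mapped reads. With TMM 16, 33 and 19 of the 77 genes were called lower in RNA there. In footprints with TMM 3 of 6 rose in Δ3'-*psbD* (11.7% of all genes) and in Δ*petB*/*D* (13%), 2 in Δ*petN* (26%), 0 in Δ*psbJ* (7.79%) and Δ*psaB* (0%) and 6 in as-*ATPC* (36.4%). *clpP* was called lower in footprints of Δ3'-*psbD*, Δ*petB*/*D* and Δ*petN*, where 10, 14 and 17 of the 77 genes were. Relative to mapped reads 0 rose in Δ3'-*psbD* (0% of all genes), 1 in Δ*petB*/*D* (1.3%), 2 in Δ*petN* (15.6%), 0 in Δ*psbJ* (0%) and Δ*psaB* (0%) and 4 in as-*ATPC* (23.4%).

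Along the plus strand *accD* lies between *rbcL*, which encodes the large Rubisco subunit, and *psaI*, for a small photosystem I subunit, with 804 and 791 nt between the counted windows. Beyond *psaI* lie *ycf4*, for a photosystem I assembly factor, *ycf10* (the file's name for *cemA*, an envelope membrane protein) and *petA*, for cytochrome f. In Δ*atpB*/*E* the upstream neighbour moved against *accD* with TMM. *rbcL* footprints fell by 1.88 on the log2 scale (edgeR adjusted p = 1.52e-06) and its RNA by 1.43 (edgeR adjusted p = 6.72e-04). *rbcL* lies next to *atpB* on the chloroplast map. *rbcL* footprints were also called lower in Δ3'-*psbD*, Δ*petB*/*D*, Δ*petN* and as-*ATPC*, where 10, 14, 17 and 17 of the 77 genes were. Its RNA was called lower in Δ3'-*psbD*, Δ*psbJ*, Δ*petN* and as-*ATPC*, where 22, 20, 33 and 19 of the 77 genes were. *rbcL* RNA gave no call in Δ*petB*/*D* (−0.23, edgeR adjusted p = 0.374), where *accD* RNA rose, or in Δ*psaB* (−0.16, edgeR adjusted p = 0.879). Downstream, *ycf10* RNA rose by 2.01 in Δ3'-*psbD*, 1.95 in Δ*petB*/*D* and 2.06 in Δ*atpB*/*E* on the log2 scale, beside 1.98, 1.88 and 1.56 for *accD*. *ycf4* RNA was called higher in 6 of the 7 comparisons and *psaI* RNA in 2. Over the 7 comparisons 2.6% to 41.6% of all genes were called higher in RNA. With TMM 1 to 4 of the 5 neighbours were called higher in footprints of each comparison other than Δ*psaB*. Of all genes 7.79% to 44.2% were called higher there. In the same footprints 0 to 2 of the 5 were called lower, where 5 to 18 of the 77 genes were. In RNA of the same comparisons 2 to 4 were called higher, where 26% to 41.6% of all genes were. In that RNA 0 or 1 were called lower, where 16 to 33 of the 77 genes were. In Δ*psaB* 0 of the 5 were called. Relative to mapped reads 3 of the 5 were called lower in footprints of Δ*atpB*/*E*, where 83.1% of all genes were, and 0 higher.

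**Figure D5:**
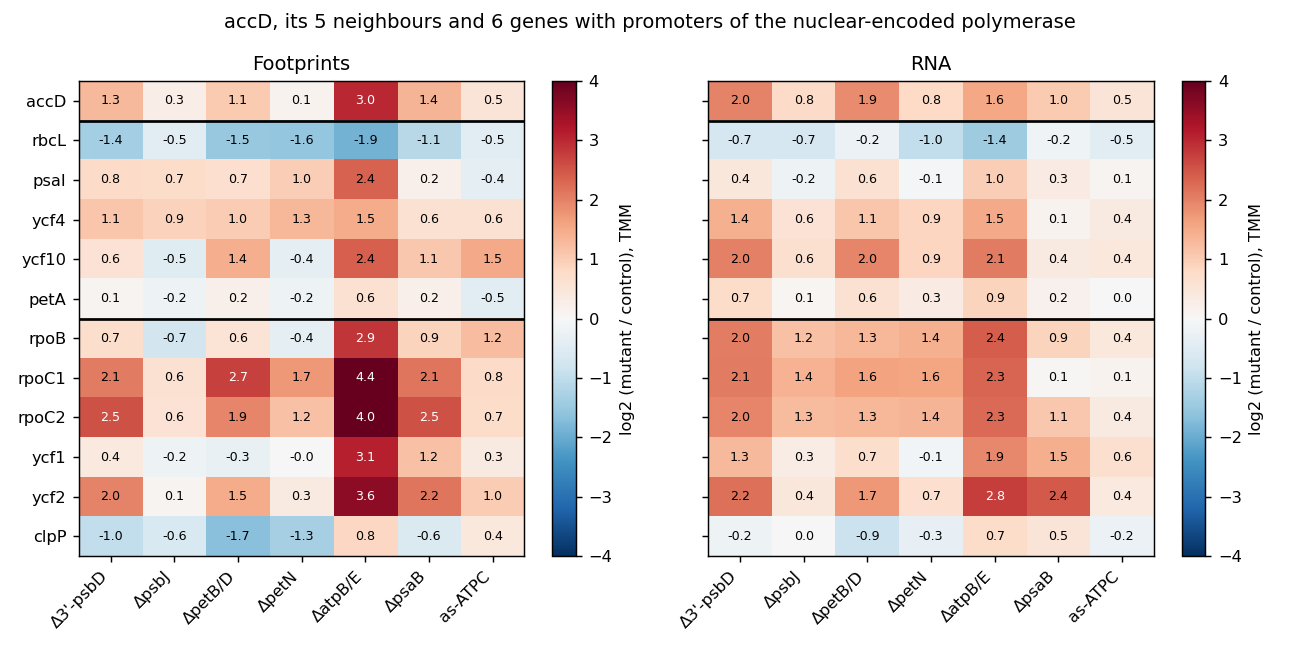
Log2 change (TMM) of *accD*, its 5 neighbours in map order and 6 genes transcribed from promoters of the nuclear-encoded polymerase, in footprints (left) and RNA (right), for each mutant (columns) against its own control, red for higher and blue for lower. *accD* stands at 3.0 in footprints of Δ*atpB*/*E*, where *rpoC1* stands at 4.4 and *rbcL* at −1.9.

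The genes whose TMM-scaled line means were most like those of *accD* over the 10 lines were, in footprints, *rps12* (Pearson's r = 0.92), *psaJ* (0.91), *rps16* (0.77), *ycf2* (0.76) and *rpl20* (0.76). In RNA they were *rpoB* (0.84), *ndhF* (0.83), *rps4* (0.82), *rpoC2* (0.79) and *ndhB* (0.79). Over the 8 lines on sucrose the order differed. In footprints it began with *ndhB* (0.95), *ycf2* (0.95), *rpoC2* (0.94), *ycf10* (0.93) and *rpoB* (0.93), with *rps12* at 0.86 and *rps16* at 0.59, and in RNA with *ycf2* (0.91), *ndhF* (0.88), *ycf10* (0.88), *rps4* (0.87) and *rpl33* (0.83). These values describe 10 or 8 points, in which genes share libraries and scaling factors, and the 8-line order was chosen after its values were seen. In mapped CPM the highest value in footprints was 0.11, for *rps12*, over all 10 lines, and 0.83, for *ycf10*, over the 8 lines on sucrose, where *rps12* stood at −0.017. In RNA *rpoB* again came first over 10 lines with 0.82, and *ndhF* over 8 with 0.94.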

How the data were processed

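Ribo-seq and RNA-seq libraries of 10 tobacco lines, 60 in all, were analysed for *accD*. *accD*, the gene lists and the alternatives were chosen with earlier results of these data known. The authors trimmed reads with cutadapt and mapped them with STAR 2.7.1a to rRNA and tRNA first, then to the chloroplast, mitochondrial and nuclear genomes. The submitters' processing notes further list FastQC, SAMtools and bedtools.

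The Ribo-seq values deposited by the authors are raw counts per reading frame, with 40 nt at the ends of *accD* left out. For RNA-seq they deposited estimated counts, whole except for 94 values in 6 other genes, and these were rounded here. Deposited counts of mapped reads per genome gave the second scaling. In 5 RNA-seq libraries coding counts exceeded the chloroplast reads listed, so RNA values per mapped read are relative levels and not shares. These were every library of Δ*psaB* (110% to 114%) and replicates 1 and 3 of RB70 (111% and 109%). Replicate 2 of RB70 stood at 95.5%, and libraries of the other lines at 71.3% to 87.0%. RNA in mapped CPM may therefore not be on equal terms between RB70 or Δ*psaB* and the other lines. Strand handling in counting is not stated. Deposited RPKM were not used, and 0 columns of per-sample values were without a sample.

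A minimum of 10 counts in 3 or more libraries was required for each comparison, which left 77 of 78 genes, *accD* always among them. R 4.3.3 with edgeR 4.0.16 was used for the quasi-likelihood test, with TMM factors within the libraries of a comparison. Benjamini-Hochberg adjustment was over 77 genes, and the study's adjusted p threshold of 0.01 was used without its 4-fold cut-off. Permutation tests and intervals used scipy 1.17.1. The test was checked on simulated counts of 77 genes for Δ*atpB*/*E*, where it recovered 8 of 10 footprint changes of 1 on the log2 scale and 10 of 10 of 2, with 0 false calls. For translation efficiency it recovered 5 of 10 changes of 1 there and 4 of 10 in a simulation of Δ3'-*psbD*, so changes of this size and below can be missed. RNA changes were not simulated. Counts were drawn from the proportions of the control with a fixed spread, and as many genes were raised as lowered. The spread between the replicates here was not matched, so these rates may not carry over. Replicates of a line differed beyond counting noise in every pair. The study calls them biological replicates, but the labels do not say whether they came from separate plants, so p-values measure the spread between these samples, which may be technical in part. Same-numbered samples deviated together (every correlation over 0.1) only in RNA-seq of Δ3'-*psbD* with pRB8c and of Δ*psaB* with RB70.

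The genes named were *accD*, the 5 most like it in each library type, and up to 4 called members of each list. Alternatives were library sizes alone, mapped reads, DESeq2 1.42.0 size factors and Wald test, TMM without the genes hit, a fit over all lines, no filter and a filter at 100 counts, a replicate block, the other transplastomic control and each library left out. Gene names were checked against the RefSeq gene table of assembly ASM71507v2, which held all 78 symbols. No sequence of *accD* is printed.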

Additional observations from a re-analysis of the deposited data

Results flagged for a closer look

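Changes of *accD* against the shared control pRB8c differed between mutants in 17 of 30 tests of a difference between mutants, 10 pairs in each of 3 measures (edgeR, adjusted p of 0.01 or less over 770 tests a measure). Values are log2 differences with TMM. In footprints Δ3'-*psbD* exceeded Δ*psbJ* by 1.13 and Δ*petN* by 1.13. It was below Δ*atpB*/*E*, with a difference of −1.23. Δ*petB*/*D* exceeded Δ*petN* by 0.89, and Δ*psbJ* minus Δ*petB*/*D* was −0.89. Against Δ*atpB*/*E* the differences were −2.37 for Δ*psbJ*, −1.48 for Δ*petB*/*D* and −2.36 for Δ*petN*. In RNA Δ3'-*psbD* exceeded Δ*psbJ* by 1.16 and Δ*petN* by 0.87, and Δ*petB*/*D* exceeded Δ*petN* by 0.82. Δ*psbJ* was below Δ*petB*/*D* (−1.11) and Δ*atpB*/*E* (−0.78). In translation efficiency the differences from Δ*atpB*/*E* were −1.61 for Δ3'-*psbD*, −1.59 for Δ*psbJ*, −1.80 for Δ*petB*/*D* and −1.87 for Δ*petN*. Pairs were not tested relative to mapped reads, where the efficiency change of Δ*atpB*/*E* against pRB8c was −1.97. Groups of 3 libraries were not tested for a library far from the others, so replicate 1 of Δ*psaB*, described above, carries no such test.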

How the results depend on the processing

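Of 330 alternative values for the 21 *accD* changes, 290 kept the direction and the side of the threshold. Values are log2 fold changes with the edgeR or DESeq2 adjusted p in parentheses, and the cause of a change was not tested. With mapped reads, footprints were 0.49 (0.153) in Δ*petB*/*D* and −0.052 (0.865) in Δ*atpB*/*E*, and translation efficiency −2.38 in Δ3'-*psbD*, −1.78 in Δ*petB*/*D*, −1.65 in Δ*petN*, −1.97 in Δ*atpB*/*E* and −0.69 in Δ*psaB*. With library sizes alone, footprints were 2.44 (3.89e-04) in Δ3'-*psbD* and 0.91 (3.22e-05) in Δ*petN*, and efficiency −1.05 (0.00215) in Δ*psbJ* and 1.03 (0.0725) in Δ*atpB*/*E*. TMM without the genes hit gave 1.38 (0.00893) for Δ3'-*psbD* footprints and −0.82 (0.00728) for Δ*petN* efficiency. DESeq2 size factors gave −0.77 (0.00850) for the latter. The Wald test gave 1.32 (8.75e-05) for Δ3'-*psbD* footprints, −0.77 (0.00401) for Δ*petN* efficiency and 1.19 (5.78e-06) for Δ*psaB* RNA. With all lines in 1 fit, Δ3'-*psbD* footprints were 1.39 (0.00217), Δ*psaB* RNA 1.09 (4.53e-04), Δ*atpB*/*E* efficiency 0.82 (0.115), and as-*ATPC* footprints 0.38 (0.540) and RNA 0.57 (0.106). With the other control line, Δ3'-*psbD* footprints were 1.97 (0.00610), Δ*psbJ* RNA 0.51 (0.0233) and Δ*psaB* RNA 1.50 (0.00286), and efficiency was 0.15 in Δ3'-*psbD*, 0.17 in Δ*psbJ*, 0.14 in Δ*petB*/*D* and −0.70 in Δ*psaB*. The replicate block turned Δ*psaB* efficiency to −0.087 (0.971) and changed no other call.

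Leaving out 1 library gave 1.04 to 1.72 for Δ3'-*psbD* footprints, 0.96 to 1.15 for Δ*petB*/*D* footprints, −0.71 to −0.58 for Δ*petN* efficiency and 1.22 to 1.50 for Δ*atpB*/*E* efficiency. It gave 0.94 to 1.24 for Δ*psaB* RNA, −0.89 to 0.76 for Δ*psaB* efficiency, and for as-*ATPC* 0.45 to 0.55 in footprints, 0.44 to 0.69 in RNA and −0.13 to 0.047 in efficiency.

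Between mutants, 18 of 30 differences kept direction and side of the threshold with library sizes alone, which gave RNA differences of 1.09 (Δ3'-*psbD* minus Δ*petN*), −0.079 (Δ3'-*psbD* minus Δ*atpB*/*E*), −0.84 (Δ*psbJ* minus Δ*petB*/*D*), 0.66 (Δ*petB*/*D* minus Δ*petN*), −0.52 (Δ*petB*/*D* minus Δ*atpB*/*E*) and −1.17 (Δ*petN* minus Δ*atpB*/*E*), of which the last alone was called (edgeR adjusted p = 0.00976, against 0.0148 to 0.858). In efficiency they gave 0.79, −0.032 and −1.29 for Δ3'-*psbD* minus Δ*psbJ*, Δ*petB*/*D* and Δ*atpB*/*E*, −0.82 and −0.35 for Δ*psbJ* minus Δ*petB*/*D* and Δ*petN*, and −1.26 for Δ*petB*/*D* minus Δ*atpB*/*E*, none of them called (edgeR adjusted p = 0.0341 to 0.961).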
